A study of Mus musculus with 9 samples.

Results

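The genes described here code for the nuclear-encoded parts of the oxidative phosphorylation system, measured in LSK cells of mouse bone marrow with and without Abi1. They were taken by symbol from the array's annotation: the Nduf genes of complex I, the 4 Sdh genes of complex II, the Uqcr genes and Cyc1 of complex III, the Cox genes of complex IV and the Atp5 genes of complex V. Symbols of pseudogenes ending in -ps were left out, only probesets with exactly 1 symbol were used, and the brightest probeset stood for a gene, which gave 92 of the 30142 genes measured. The symbol rule also drew in the Ndufaf genes and Atp5sl, which help to build complex I and are not part of it, and Atp5l2, which RefSeq lists as a pseudogene. They are kept and described apart, as 8 assembly factors and 1 pseudogene.

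LSK cells are marrow cells sorted as lineage-negative and positive for both Sca-1 and c-Kit, a gate in which the blood stem cells and earliest progenitors lie. The 4 knockout (KO) mice were Abi1(-/-);Tg (Mx1-cre(+)), and the 5 wild-type (WT) mice were Abi1(fl/fl);Tg (Mx1-cre(-)). Mice of both groups were given poly(I:C) in 3 injections at 8 to 9 weeks of age, which turns on the Mx1 promoter and so the Cre recombinase of the KO mice. Marrow was taken at 12 to 14 weeks, each array held the cells of 1 mouse, and 5 ng of total RNA was amplified per sample. The WT mice carried the floxed alleles too but no Cre, so the loss of Abi1 and the presence of Cre cannot be told apart, and the Mx1 promoter acts in many tissues besides blood stem cells. Abi1, a subunit of the WAVE complex that drives actin branching, had log2 signals of 5.59 to 6.11 in the 4 KO arrays and 11.49 to 11.65 in the 5 WT arrays. It fell by 5.73 on the log2 scale (limma adjusted p = 7.42e-08).

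Oxidative phosphorylation passes electrons from nutrients along complexes I to IV of the inner mitochondrial membrane to oxygen, pumps protons out as it does so, and lets them flow back through complex V, the ATP synthase. A small part of each proton-pumping complex is coded by mitochondrial DNA and the rest by nuclear genes. Long-term blood stem cells are known to rely little on this route and to switch to it as they divide and mature. Several subunits of complex IV exist as a common form and as forms restricted to muscle, lung, testis or other tissues.

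RefSeq's GRCm38.p6 table held 300 bases around the start of 74 of the 92 genes, from 250 bases before to 50 after it. Motifs were searched there on both strands, and a match is a description of the letters, not of a bound site. The site of NRF1, a regulator of nuclear genes for mitochondria, was searched as GCGCA and GCGC with any 1 base between them, and was present in 16 of the 74 genes (21.6%), against 5.19% of all genes in the table and 7.17% of protein-coding genes. The ETS letters CCGGAAG, read by the GABP factors, were present in 18 genes (24.3%), against 9.93% and 12.9%. The YY1 letters AAGATGGCG were present in 8 genes (10.8%), against 1.64% and 2.14%. The TATA letters TATAAA went the other way, in 8 genes (10.8%) against 15.7% of all genes and 14.8% of protein-coding genes. None of the 4 tissue forms in the table (Cox7a1, Cox6b2, Cox7b2 and Cox8b) held NRF1, ETS or YY1 letters in this window, but Cox7b2 and Cox8b held TATA letters. The median of the 4 was 8.5 CpG pairs, against 19 over all 74 genes and 13 over protein-coding genes. The muscle motif of MEF2, searched as CTA and TAG with any 4 bases between them, was found in 2 genes (2.7%), neither a tissue form.

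Shown here are the 120 bases just before the start of 8 genes, 5′ to 3′ on the gene's strand, with NRF1, ETS and YY1 letters in capitals: a muscle form and its common partner, another muscle form, and genes of each kind of motif. Cox7a1 lies at chr7:30184051-30184170 (plus strand), Cox7a2 at chr9:79759854-79759973 (minus), Cox8b at chr7:140900447-140900566 (minus), Cox6a1 at chr5:115348959-115349078 (minus), Cox6b1 at chr7:30626115-30626234 (minus), Sdha at chr13:74350241-74350360 (minus), Ndufa8 at chr2:36049339-36049458 (minus) and Atp5j at chr16:84834977-84835096 (minus, 1 of 2 starts in the table).
Cox7a1: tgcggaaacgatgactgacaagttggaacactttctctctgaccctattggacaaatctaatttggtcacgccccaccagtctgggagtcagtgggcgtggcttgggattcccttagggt
Cox7a2: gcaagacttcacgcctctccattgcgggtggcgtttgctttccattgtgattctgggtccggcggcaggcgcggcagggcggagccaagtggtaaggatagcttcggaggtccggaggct
Cox8b: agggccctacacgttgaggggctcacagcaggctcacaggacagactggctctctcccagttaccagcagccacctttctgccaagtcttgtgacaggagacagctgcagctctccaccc
Cox6a1: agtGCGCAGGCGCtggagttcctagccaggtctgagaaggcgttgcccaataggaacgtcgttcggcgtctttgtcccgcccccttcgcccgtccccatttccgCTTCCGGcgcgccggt
Cox6b1: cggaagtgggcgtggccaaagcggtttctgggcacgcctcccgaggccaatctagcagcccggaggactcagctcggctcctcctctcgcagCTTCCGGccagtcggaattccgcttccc
Sdha: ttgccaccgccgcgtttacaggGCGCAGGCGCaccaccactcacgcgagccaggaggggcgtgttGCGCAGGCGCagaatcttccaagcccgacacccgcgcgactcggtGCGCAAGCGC
Ndufa8: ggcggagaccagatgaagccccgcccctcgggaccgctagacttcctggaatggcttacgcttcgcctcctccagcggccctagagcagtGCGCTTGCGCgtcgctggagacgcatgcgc
Atp5j: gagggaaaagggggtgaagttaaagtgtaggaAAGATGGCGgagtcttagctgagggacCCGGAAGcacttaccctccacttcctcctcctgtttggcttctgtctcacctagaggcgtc
The Sdha stretch holds the NRF1 letters 3 times. The stretches of Cox7a1, Cox7a2 and Cox8b hold none of the 3 motifs.

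Signals are used as log2 values normalized by the authors, so a difference of 1 is read as a doubling. A probeset's signal depends on its own probes, so the order of 2 genes' signals is an order of brightness and not of molecules. Background was set in each array at percentile 95 of 1524 olfactory and vomeronasal receptor genes. It was 5.61 in KO 1 and between 5.29 and 5.35 in the other arrays. The mean of 16137 genes (53.5%) exceeded it. The median signal of the probesets other than controls was also highest in KO 1, at 5.33 against 5.08 to 5.15. High signals of dim genes in KO 1 are therefore to be read beside its higher background. The replicates were separate mice. An array of each group stood apart from the rest: KO 1 and WT 5 had median correlations with the other arrays of 0.986 and 0.989, against 0.993 to 0.996, and the positive and negative control probesets were least well separated there (area under the curve 0.775 and 0.756, against 0.803 to 0.827). Marker sums of some other cells had their extremes in 1 or the other of these arrays. The summed signal of 9 neutrophil markers, 7 of them above background, was 9.67 to 13.74 (log2) in KO and 9.19 to 10.70 in WT. It was highest in KO 1, followed by KO 2 at 12.69. The sum of 5 erythroid markers, all above background, was 11.62 in WT 5 against 15.50 to 17.07 in the other arrays. Car1 carried that sum, at 6.38 in WT 5 against 15.40 to 16.99. Klf1 and Epor were also lowest in WT 5, but Car2 and Alas2 were not. The sum of 5 megakaryocyte markers, all above background and each lowest in WT 5, was 11.42 there against 14.57 to 15.92. The 4 measured B cell markers, 3 of them above background and all dim, had sums that split the groups, 8.66 to 9.08 in KO and 8.25 to 8.45 in WT. Only Cd79b, the brightest of them, split the groups by itself, at 8.03 to 8.62 in KO and 7.57 to 7.94 in WT. Cd79a overlapped, Ebf1 met at 5.54, and Pax5 was below background in all 9 arrays. The 5 mast cell and basophil markers, all above background, had overlapping sums of 13.50 to 14.31 in KO and 12.86 to 14.24 in WT, but Cma1, Fcer1a and Tpsb2 were higher in every KO array than in any WT array. The 9 LSK and stem cell markers measured were all above background and had sums of 15.67 to 15.95 in KO and 15.87 to 16.40 in WT, highest in WT 5. Among them Kit was lowest in KO 1, at 13.82 against 14.39 to 14.78, Slamf1 was lowest in WT 5, at 8.63 against 9.61 to 11.28, and Cd34, Flt3 and Hlf were highest in WT 5. Ly6a, the gene of Sca-1, was not analysed here.

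In LSK cells the oxidative phosphorylation genes were bright. Of the 92, 88 had a mean above background, and the median gene had a log2 signal of 11.65, brighter than 92.6% of all genes. The 12 common subunits of complex IV had a median signal of 13.72, the 9 genes of complex III 13.70, the 28 accessory subunits of complex I 12.65 and its 6 core subunits 10.45. The 8 assembly factors of complex I had a median of 9.42 and the 8 tissue forms of complex IV one of 5.37. The 4 genes not above background were all tissue forms: Cox8c, Cox7b2, Ndufa4l2 and Cox8b.

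Between KO and WT no member passed the test across all genes: 0 of 92 reached a limma adjusted p under 0.05, as 0.00332% of all genes did (Abi1 alone), and the smallest adjusted p of a member was 0.786. At an unadjusted p under 0.05, 15 members were higher in KO and 0 were lower, against 3.82% of all genes higher and 1.19% lower. The mean was higher in KO for 80 of the 92 (87%), against 63.9% of all genes, and the median difference was 0.18 against 0.03 for all genes and 0.02 for those above background. With array medians centred, the split of all genes under 0.05 moved from 76.2% higher to 60.8% higher. Centring shifts the difference of every gene by the same amount. The members' median moved to 0.14 and that of all genes to -0.01, and the gap between them stayed at 0.15. Only Cox7a1 had groups that did not overlap, all KO arrays being higher, as 0.68% of all genes had; none had all KO arrays lower, as 0.176% had. These genes come from bulk RNA, in which fewer cells of a type and less RNA per cell cannot be told apart.

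**Figure D1:**
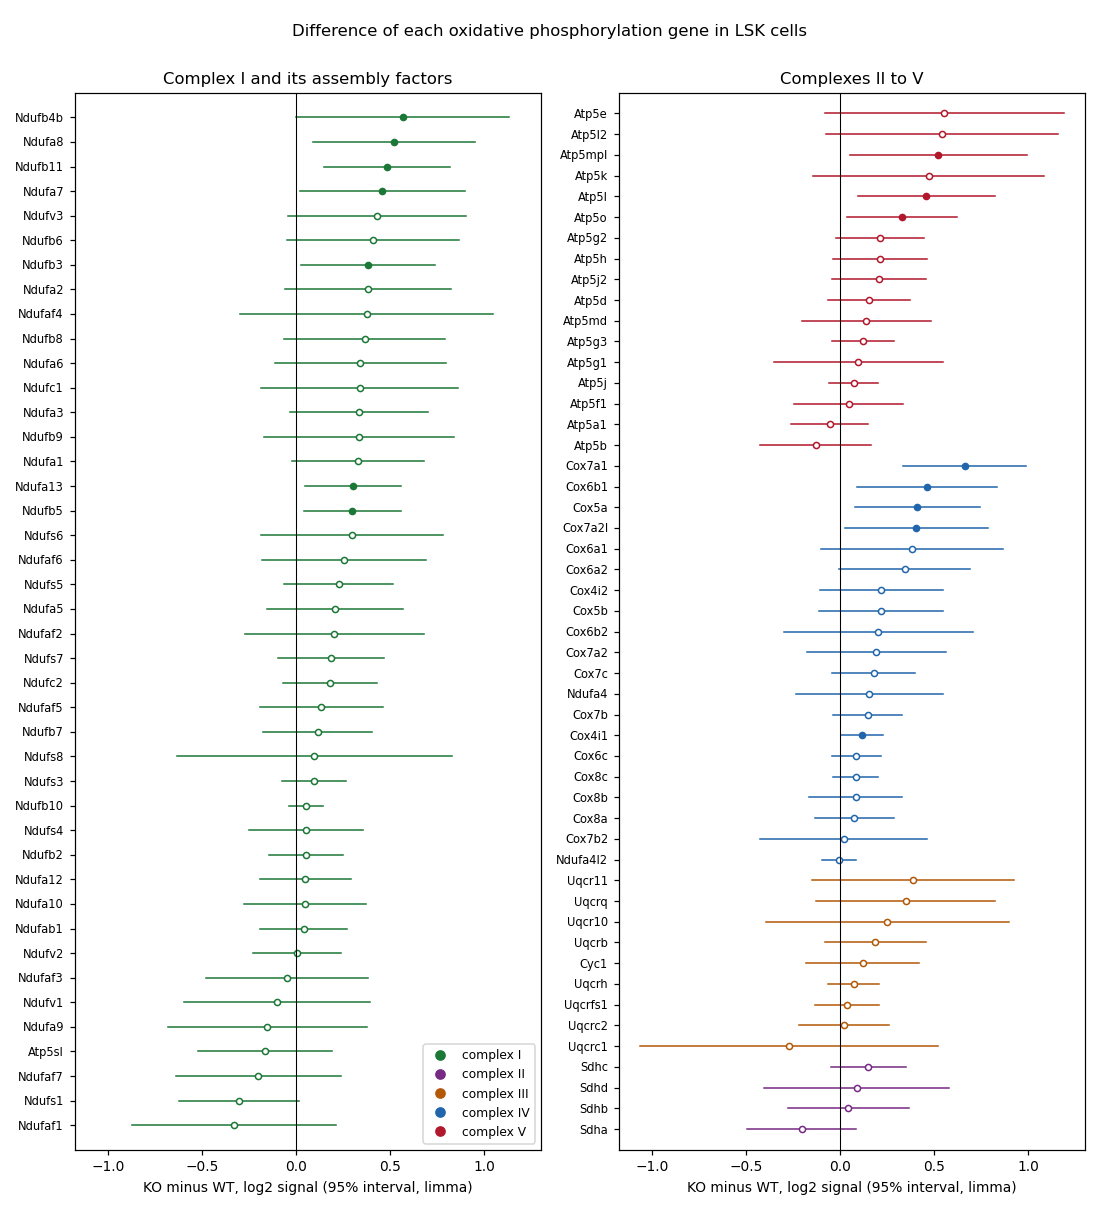
Difference in log2 signal between KO (n = 4) and WT (n = 5) for each of the 92 genes, with the 95% interval of limma, grouped by complex. Filled points have an unadjusted p under 0.05 (15 genes, all higher in KO), and no gene has an adjusted p under 0.05.

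The size of that shift rested on KO 1 and WT 5. KO 1 was the highest of the 9 arrays for 52 of the 92 genes and the lowest for 11, while WT 5 was the lowest for 62 and the highest for 0. The median deviation from each gene's mean was 0.25 in KO 1 and -0.38 in WT 5, and between -0.11 and 0.14 in the other 7 arrays. Without KO 1 the median difference was 0.14 with 82 genes higher in KO, without WT 5 it was 0.10 with 69 higher, and without both it was 0.04 with 62 higher and 29 lower. Over all genes the median without both was 0.0025. Of all 30142 genes 16337 were higher without KO 1, 18529 without WT 5 and 15300 without both. At an unadjusted p under 0.05, 5 members were higher without KO 1 (2.45% of all genes were), 9 without WT 5 (2.89%) and 4 without both (2.26%). Without both, 1 member (Ndufaf1) was lower, as were 457 of the 30142 genes. As given above, the control probesets were least well separated in these arrays. Neutrophil sums were highest in KO 1 and KO 2, and erythroid and megakaryocyte sums were lowest in WT 5. The B cell sums, carried by Cd79b, and 3 mast cell markers split the groups. The part of any of these in the shift was not tested.

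**Figure D2:**
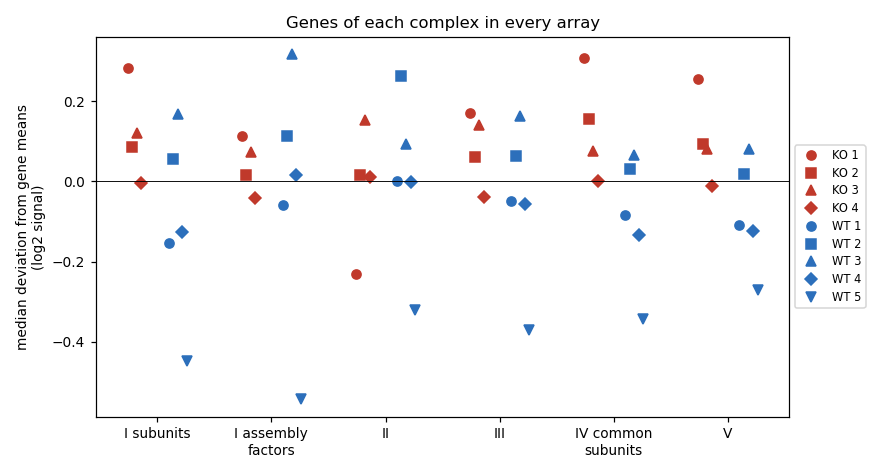
Median deviation of the genes of each complex from their means over 9 arrays, in log2 signal, with a point per array (circles, squares, triangles and diamonds for replicates 1 to 4, downward triangles for WT 5). WT 5 is lowest in every group of genes, and KO 1 is highest in complexes III, IV and V and in the subunits of complex I, but second lowest in complex II.

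Complex I takes electrons from NADH. Its core subunits carry the flavin and the iron-sulphur clusters along which electrons run, and its accessory subunits surround and stabilise them. Of the 28 accessory subunits 27 had a higher mean in KO (63.9% of all genes did), with a median difference of 0.32. At an unadjusted p under 0.05, 7 were higher, against 3.82% of all genes. Of the 6 core subunits 4 were higher and 2 lower, with a median of 0.05 and none under 0.05. Whether the groups differ was not tested. Without KO 1 and WT 5 the accessory subunits were 21 higher and 6 lower (1 equal), with a median of 0.10 and 0 under 0.05, and the core subunits were 3 and 3, with a median of -0.00042. Of all 30142 genes 15300 were then higher.

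Ndufb11, an accessory subunit of the membrane arm, had the smallest p of complex I. Its signals were 13.03, 12.96, 12.78 and 12.55 in KO and 12.25, 12.46, 12.73, 12.13 and 12.16 in WT. The KO array at the bottom lay below the WT array at the top, so the groups overlapped. The difference was 0.48 (SE 0.15, limma p = 0.010, adjusted p = 0.786; exact two-sided permutation p = 0.032), and it was 0.37 without KO 1 and WT 5.

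Ndufa8, an accessory subunit facing the space between the membranes, had signals of 11.74, 12.04, 11.89 and 11.57 in KO and 11.17, 11.75, 11.59, 11.03 and 10.91 in WT. Here KO 2 and not KO 1 was the highest array, and 2 WT arrays lay within the KO range. The difference was 0.52 (SE 0.19, limma adjusted p = 0.786), 0.45 without KO 1 and WT 5. Its upstream stretch, shown above, holds NRF1 letters, as do those of Cox6a1 and Sdha.

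Ndufa13, also known as GRIM-19 and active in cell death, had signals of 13.87, 13.72, 13.86 and 13.64 in KO and 13.43, 13.69, 13.64, 13.43 and 13.15 in WT. Ndufb5, of the membrane arm, had 9.32, 9.06, 9.07 and 8.94 in KO and 8.60, 8.94, 9.06, 8.71 and 8.68 in WT. Both differed by 0.30 (limma adjusted p = 0.786 in each), and in both the lowest KO array fell among the WT arrays. The other 3 accessory subunits under an unadjusted 0.05 were Ndufb3, at a difference of 0.38, Ndufa7, at 0.46, and Ndufb4b, at 0.57. Ndufb4b has the name of a second copy of Ndufb4, whose own probeset carried several symbols and was not used, so the signal of the pair cannot be assigned with certainty.

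The brightest genes of complex I were Ndufa1, a small membrane-arm subunit, at a mean of 15.46 over the 9 arrays, and Ndufc2, at 15.37. Ndufa1 had 16.00 in KO 1 and 15.50 to 15.55 in the other KO arrays, against 14.92 to 15.56 in WT, a difference of 0.33 (SE 0.15). Ndufc2 differed by 0.18 (SE 0.11), with groups that overlapped. The dimmest were Ndufc1, at 7.10, and Ndufab1, at 7.02, the acyl carrier protein of mitochondria, which is shared with fatty acid synthesis. Ndufc1 differed by 0.34 (SE 0.23) and Ndufab1 by 0.04 (SE 0.10), and both were above background in all 9 arrays.

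The core subunits did not go one way. Ndufs1, which holds iron-sulphur clusters, had signals of 8.63, 8.79, 9.08 and 9.04 in KO and 9.16, 9.59, 9.09, 9.08 and 9.02 in WT. All but 1 of the WT arrays reached at least the highest KO signal. The difference was -0.30 (SE 0.14, limma adjusted p = 0.786), and it was -0.26 without KO 1 and WT 5. Ndufv1, which binds NADH and the flavin, differed by -0.10 (SE 0.22). Ndufs8, an iron-sulphur subunit near the ubiquinone site, was lowest in KO 1, at 10.83, with the other KO arrays at 11.73 to 12.32 and WT at 11.08 to 12.08. Its difference was 0.10 (SE 0.32) with all arrays and 0.40 without KO 1. Ndufs3, Ndufs7 and Ndufv2 differed by 0.10, 0.18 and 0.0065.

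The assembly factors of complex I were 4 higher and 4 lower in KO, with a median of 0.04 that turned to -0.07 without KO 1 and WT 5 and to -0.0040 with array medians centred. Ndufaf1, which joins the early membrane-arm intermediate, had the most negative difference of all 92 members. Its signals were 9.05, 9.71, 9.77 and 9.64 in KO and 9.83, 10.19, 10.24, 9.90 and 9.19 in WT. WT 5 lay among the KO arrays and the other 4 WT arrays lay above all of them. The difference was -0.33 (SE 0.24, limma adjusted p = 0.786) with all arrays, -0.16 without KO 1, -0.50 without WT 5 and -0.33 without both. Ndufaf4, at the other end, differed by 0.38 (SE 0.29), with 10.62 in KO 1 and 8.78 in WT 5 as its extremes. Ndufaf2, a late factor, differed by 0.20, Ndufaf6 by 0.26, Ndufaf5 by 0.13, Ndufaf3 by -0.05, Ndufaf7 by -0.20 and Atp5sl by -0.17.

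Complex II, succinate dehydrogenase, belongs to both the respiratory chain and the tricarboxylic acid cycle and pumps no protons. It was the only complex whose median deviation was below 0 in KO 1, at -0.23, although Sdhc was highest there. Sdha, the flavin subunit that oxidises succinate, had signals of 11.27, 11.52, 11.82 and 11.72 in KO and 11.76, 12.03, 11.59, 11.84 and 11.72 in WT. The groups overlapped widely, with a difference of -0.21 (SE 0.13, limma adjusted p = 0.786). Sdhb, the iron-sulphur subunit, had 12.50 ± 0.25 in KO (SD, n = 4) and 12.45 ± 0.21 in WT (SD, n = 5). Sdhc, a membrane anchor, had 8.95 ± 0.10 in KO and 8.80 ± 0.16 in WT, and Sdhd, the other anchor, 11.07 ± 0.19 and 10.98 ± 0.43. The Sdhd spread in WT came from WT 5, at 10.24 against 11.05 to 11.30. The median of the 4 differences was 0.07 with all arrays, 0.13 without KO 1 and -0.07 without WT 5, so it had no steady sign.

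Complex III passes electrons from ubiquinol to cytochrome c. Of its 9 genes 8 had a higher mean in KO (63.9% of all genes did), with a median difference of 0.12 and 0 at an unadjusted p under 0.05. Uqcrc1, a large core protein and the brightest of the complex at 14.82, was the exception. It had 13.56 in KO 1 against 15.06, 15.20 and 14.84 in the other KO arrays, and 15.0, 15.33, 14.98, 15.04 and 14.33 in WT. The 2 arrays that stood apart were its lowest, and the others were between 14.84 and 15.33. The difference was -0.27 (SE 0.35) with all arrays and 0.10 without KO 1. Uqcrh, the hinge protein beside cytochrome c1, had a mean of 14.80 ± 0.10 in KO and 14.73 ± 0.08 in WT, at 0.07 (-0.02 after quantile normalization). The dimmest were Uqcrfs1, the Rieske iron-sulphur protein, at 10.03 with a difference of 0.04 (SE 0.08), and Uqcr10, a small accessory subunit, at 9.53 with one of 0.25 (SE 0.28). The difference of Uqcrfs1 was -0.0095 with array medians centred. Cyc1, cytochrome c1 itself, differed by 0.12 (SE 0.13), and the largest difference of the complex was that of the small subunit Uqcr11, at 0.39 (SE 0.23).

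Complex IV, cytochrome c oxidase, hands the electrons to oxygen. All 12 of its common subunits had a higher mean in KO (63.9% of all genes did), with a median difference of 0.19. At an unadjusted p under 0.05, 4 were higher, against 3.82% of all genes. Without KO 1 and WT 5, 11 were higher and 1 lower, with a median of 0.08, and 15300 of the 30142 genes were higher. Then 1 common subunit was higher under 0.05 (Cox4i1), against 2.26% of all genes.

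Cox6b1, which lies where the oxidase pairs into a dimer, had signals of 14.41, 14.24, 14.30 and 14.00 in KO and 13.66, 14.06, 14.14, 13.62 and 13.40 in WT. Only the lowest KO array lay below WT arrays, and 2 WT arrays exceeded it. The difference was 0.46 (SE 0.16, limma adjusted p = 0.786; exact permutation p = 0.048), and 0.31 without KO 1 and WT 5. Cox5a, a matrix-side subunit, had 14.71, 14.40, 14.37 and 14.26 in KO and 13.94, 14.26, 14.30, 13.95 and 13.67 in WT. Its difference of 0.41 (SE 0.15) was 0.23 without KO 1 and WT 5. Cox4i1, the common form of the regulatory subunit that binds ATP, had 13.11, 13.28, 13.21 and 13.11 in KO and 13.03, 13.11, 13.11, 13.07 and 12.98 in WT. Its groups met at 13.11, and its difference was 0.12 (SE 0.05) with all arrays, 0.12 without KO 1 and WT 5, and 0.05 after quantile normalization.

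Cox7a2l takes part in joining complexes III and IV into supercomplexes. It had signals of 12.20, 12.60, 11.77 and 11.76 in KO and 11.57, 11.71, 11.76, 11.69 and 11.65 in WT. KO 1 and KO 2 were far above the rest and the other 2 KO arrays lay at the top of the narrow WT range. The difference was 0.41 (SE 0.17, limma adjusted p = 0.786; exact permutation p = 0.016). KO 1 and KO 2 were also the arrays with the highest neutrophil marker sums, 13.74 and 12.69 against 9.19 to 10.70, and the part of those cells in the difference was not tested.

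Cox7a1, the form of subunit VIIa of heart, skeletal muscle and brown fat, had the largest difference of the 92 genes. Its signals were 7.93, 7.53, 7.26 and 7.23 in KO and 6.71, 6.78, 7.0, 6.76 and 6.87 in WT. All KO arrays were above all WT arrays, and all 9 were above background. The means were 7.49 ± 0.32 (SD, n = 4) and 6.82 ± 0.11 (SD, n = 5), a difference of 0.66 (SE 0.14, 95% interval 0.34 to 0.99), or 1.58-fold. It did not pass across all genes (limma p = 0.0015, adjusted p = 0.786), the exact permutation p of 0.00794 is the smallest that 4 against 5 arrays can give, and the gene was singled out with this result known, so the difference is a description. The sums of the B cell markers, carried by Cd79b, also split the groups, and their part in the difference was not tested. The difference was 0.52 without KO 1, 0.68 without WT 5 and 0.53 without both.

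The partner forms of Cox7a1 differed less. Cox7a2, the form found in most tissues and the brightest gene of complex IV at 15.99, had 16.10 ± 0.13 in KO and 15.91 ± 0.33 in WT, a difference of 0.19 (SE 0.16). The summed signal of 7 skeletal muscle genes, 4 of them above background, was 8.03 to 8.26 in KO and 8.01 to 8.07 in WT, with KO 1 the highest here as for Cox7a1. Among them Ckm and Acta1 were above background in all 9 arrays and Tnnt3 and Mb in 7. All 4 stayed near it, at 5.14 to 5.85 beside a background of 5.29 to 5.61. The muscle myosins Myh1, Myh2 and Myh4 were below background in all 9 arrays, as were Ucp1 and Cidea of brown fat. Of 3 heart genes, Tnnt2 was above background in all 9 arrays, at 6.89 in KO 1 against 6.35 to 6.59 in the others. Myh6 and Nppa were below it in all 9. Cox8b and Cox6a2, forms restricted to heart and muscle like Cox7a1, had different levels: Cox8b was below background in all arrays, at 3.75 ± 0.25 in KO and 3.67 ± 0.06 in WT. Cox6a2 was above background in 5 of 9 arrays, with 6.12, 5.52, 5.36 and 5.36 in KO and 5.26, 5.17, 5.29, 5.15 and 5.36 in WT. Only KO 1 was clearly above the rest, and its background was the highest too, at 5.61. The difference was 0.34 (SE 0.15, limma adjusted p = 0.786) with all arrays and 0.20 without KO 1 and WT 5.

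**Figure D3:**
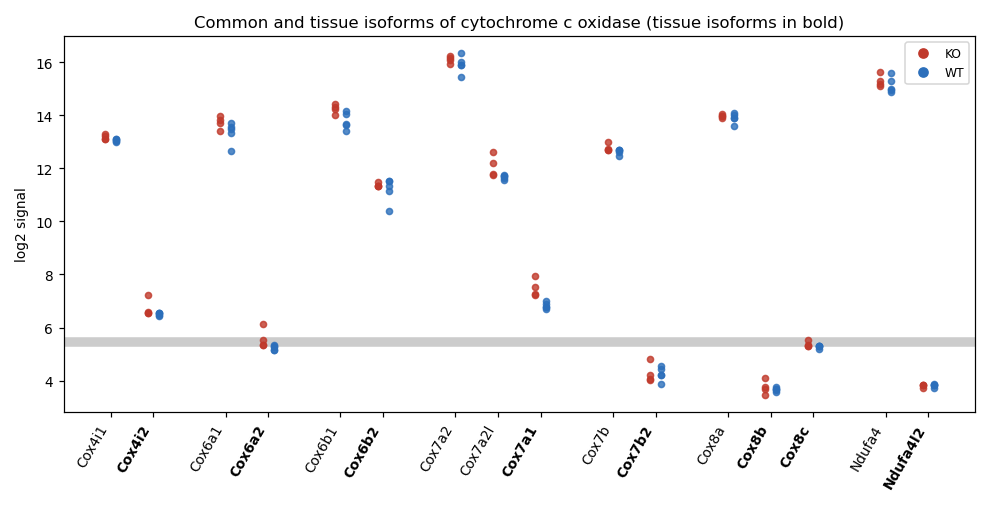
Log2 signal of the common (plain) and tissue (bold) forms of complex IV subunits in each KO (red) and WT (blue) array, with the background range of the 9 arrays as a grey band. Cox6b2, Cox7a1 and Cox4i2 lie above the band in every array, Cox6a2 and Cox8c lie at it, and Cox7b2, Cox8b and Ndufa4l2 lie below it.

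The other tissue forms are known from lung and testis. Cox4i2, the oxygen-dependent form of lung, had 7.24 in KO 1 and 6.54 to 6.58 in the other KO arrays, against 6.42 to 6.56 in WT, while its partner Cox4i1 was at 13.11. Cox6b2, a testis form, was bright here, at 11.39 ± 0.07 in KO and 11.18 ± 0.47 in WT, beside 13.98 for Cox6b1. The testis markers Prm1 and Tnp1 were below background in all 9 arrays, and Prm2 was above it in all 9 at 5.77 in KO and 5.72 in WT. Cox7b2 and Cox8c, also of testis, had means of 4.27 and 5.33, the first above background in 0 arrays and the second in 7. Their common partners Cox7b and Cox8a had 12.70 and 13.93. Cox7b differed by 0.15 (SE 0.08), with 13.0 in KO 1 and 12.47 to 12.72 in the other arrays, and Cox8a by 0.08 (SE 0.09). Cox6a1, the partner of Cox6a2, was at 13.51 and differed by 0.38 (SE 0.21). Ndufa4, once counted to complex I and now to complex IV, was at 15.20 and differed by 0.16 (SE 0.17). Its relative Ndufa4l2, known as a gene of low oxygen, was at 3.81 and below background in all arrays.

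**Figure D4:**
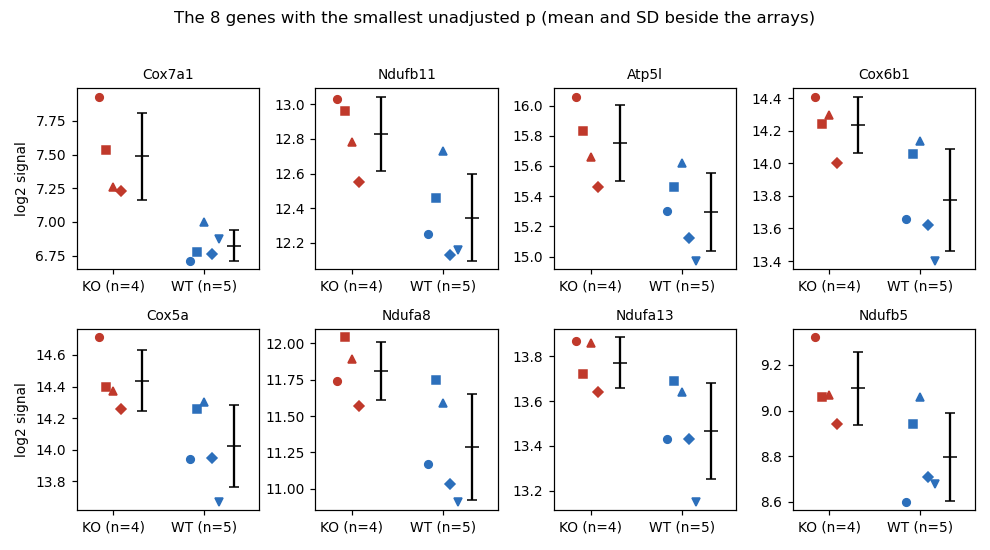
Log2 signal in each array for the 8 members with the smallest unadjusted p, with the mean and SD of each group (KO n = 4, WT n = 5; markers as circle, square, triangle, diamond and downward triangle for replicates 1 to 5). The groups are separate for Cox7a1 and overlap in the other 7 genes, and the vertical axes differ between panels and do not start at 0.

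Complex V makes ATP. Its genes fall into the catalytic head, the stalks that hold it, and the membrane part with the rotating c ring. In the head 2 of 4 genes were higher in KO. Atp5a1 and Atp5b, the alpha and beta subunits that form the catalytic sites, differed by -0.06 (SE 0.09) and -0.13 (SE 0.13). Atp5d, of the central stalk of the head, differed by 0.15 (SE 0.10). Atp5e, the smallest subunit of the head, had 11.15, 10.5, 10.19 and 9.91 in KO and 9.91, 10.03, 10.24, 9.99 and 9.24 in WT. Its difference was 0.56 (SE 0.28), with KO 1 highest and WT 5 lowest. Atp5c1, the gamma subunit, was not analysed here.

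All 4 genes of the outer stalk had a higher mean in KO (63.9% of all genes did), with a median of 0.14. Atp5o, the subunit that joins stalk and head, had signals of 12.09, 12.05, 12.04 and 11.89 in KO and 11.66, 11.89, 11.91, 11.71 and 11.27 in WT. The lowest KO array was level with the second highest WT array. The difference was 0.33 (SE 0.13, limma adjusted p = 0.786; exact permutation p = 0.048), and 0.20 without KO 1 and WT 5. Atp5h differed by 0.21 (SE 0.11) and Atp5f1 by 0.05 (SE 0.13). Atp5j, the dimmest gene of complex V at 7.20, differed by 0.07 (SE 0.06).

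All 8 genes of the membrane part had a higher mean in KO (63.9% of all genes did), with a median of 0.21. Without KO 1 and WT 5, 6 of 8 did, as did 15300 of the 30142 genes. Atp5mpl, a small proteolipid of the synthase, had signals of 16.52, 15.77, 16.07 and 15.72 in KO and 15.23, 15.72, 15.81, 15.12 and 15.61 in WT. WT 3, at 15.81, lay above the lower pair of KO arrays, so the groups overlapped. The difference was 0.52 (SE 0.21, limma adjusted p = 0.786), 0.38 without KO 1 and WT 5. Atp5md, a small subunit of the dimer interface and the brightest of all members at 16.62, differed by 0.14 (SE 0.15). Atp5j2, near the other end at 7.31, differed by 0.21 (SE 0.11).

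Atp5l, subunit g, had signals of 16.06, 15.83, 15.66 and 15.46 in KO and 15.30, 15.46, 15.62, 15.12 and 14.97 in WT, a difference of 0.46 (SE 0.16, limma adjusted p = 0.786). It rests on a probeset whose identifier carries chromosome 5, while RefSeq places Atp5l on chromosome 9. The 2 probesets numbered for chromosome 9 had means of 9.86 and 5.71 and differed by 0.17 and 0.03. Atp5g2, a c ring gene of chromosome 15, was likewise represented by a probeset numbered for chromosome 7, which differed by 0.21, and its dimmer probeset numbered for chromosome 15 differed by 0.24. Probeset and gene carried the same chromosome for the other 90 members. Which copy of the sequence the brighter probesets read is not given in the sources used here, so the signals of these 2 genes are uncertain. The other c ring genes, Atp5g1 and Atp5g3, code for the same mature protein and differed by 0.10 (SE 0.20) and 0.12 (SE 0.07). The pseudogene Atp5l2, at 12.31, differed by 0.54 (SE 0.27) and is named as a copy of Atp5l, so its signal is uncertain too.

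The members varied together from mouse to mouse within the groups. Over the deviations of the 9 arrays from their group means, the median correlation between pairs of members above background was 0.64, against 0.02 between pairs of all genes above background. It was 0.74 among the 34 complex I subunits, 0.70 in complex III, 0.64 among the common subunits of complex IV, 0.54 in complex V and 0.65 among 74 mitochondrial ribosomal protein genes. All these values rest on the same 9 arrays, KO 1 and WT 5 among them, and are a description. Within KO 1 the members did not move as a block: it lay above the mean of the other KO arrays for 64 genes and below for 28. It was above for 23 of 28 accessory subunits of complex I, 9 of 12 common subunits of complex IV and 7 of 8 membrane subunits of complex V, and below for 4 of 6 core subunits of complex I, 3 of 4 genes of complex II and 3 of 4 of the head of complex V. WT 5 lay below the mean of the other WT arrays for 83 of 92.

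**Figure D5:**
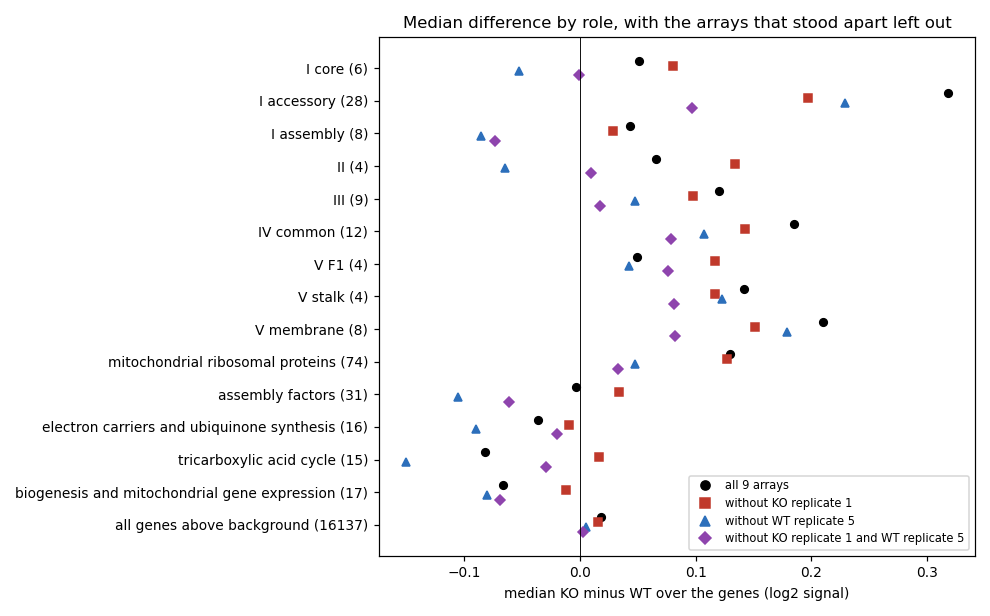
Median difference in log2 signal between KO and WT over the genes of each role (number of genes in brackets), with all 9 arrays (black circles), without KO 1 (red squares), without WT 5 (blue triangles) and without both (purple diamonds). The median of the accessory subunits of complex I goes from 0.32 with all arrays to 0.10 without both, beside 0.02 and 0.0025 for all genes above background.

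The other lists of mitochondrial genes had median differences from -0.08 to 0.13, beside 0.18 for the members. Of 74 mitochondrial ribosomal proteins 60 had a higher mean in KO (81.1%, against 63.9% of all genes), with a median of 0.13. At an unadjusted p under 0.05, 3 were higher (4.05%, against 3.82% of all genes) and 1 was lower (1.35%, against 1.19%). The 31 measured of 37 further assembly factors were 14 higher and 16 lower, with a median of -0.0030, and Foxred1, an assembly factor of complex I, was the 1 under 0.05, at a difference of -0.22 (SE 0.09). Regulators of mitochondrial biogenesis and gene expression were 5 higher and 12 lower of 17 measured, with a median of -0.07 and none under 0.05. Genes of the tricarboxylic acid cycle were 2 higher and 13 lower of 15, with a median of -0.08, and Idh3g, a subunit of isocitrate dehydrogenase, was the 1 under 0.05, higher by 0.14 (SE 0.05). The genes of this cycle were 8 higher and 7 lower without KO 1, with a median of 0.02. Without KO 1 and WT 5 they were 2 and 13, with a median of -0.03. Of all 30142 genes 16337 were higher without KO 1 and 15300 without both arrays. Of 16 genes for electron carriers and ubiquinone synthesis 7 were higher and 9 lower. Coq10b, a ubiquinone-binding protein, differed by 0.37 (SE 0.13), its relative Coq10a by -0.29 (SE 0.11), and Coq2, which attaches the side chain of ubiquinone, by -0.28 (SE 0.07). The 10 measured carriers and uncoupling proteins were 5 and 5. None of these genes had a limma adjusted p under 0.05, and of the 13 proteins coded by mitochondrial DNA 0 had a usable probeset. Whether these lists differ from the members was not tested.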

How the data were processed

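Total RNA of sorted LSK cells was hybridised to 9 Affymetrix whole-transcript arrays, 1 per mouse, per the labels' protocols. The authors deposited 1 table of log2 signals (72688 probesets), and Partek 6.6 is named in the submitters' processing notes. How they were background-corrected and normalized, and the base of the log, is not given in the sources; values run from 1.84 to 19.45 and are read as log2. Precision is set by the number of arrays, with a median standard error of 0.15 for members above background.

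Of the probesets 6732 were controls. Of the other 65956, 30604 carried exactly 1 symbol (827 symbols updated through Entrez identifiers to RefSeq, GRCm38.p6), and 30142 genes were each taken from their brightest probeset. Left out were 4 member probesets with several symbols (of Ndufa11, Ndufb4, Cox5b and Atp5g2) and 2 pseudogenes.

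The test of KO against WT was limma's (version 3.58.1, R 4.3.3; lmFit, then eBayes, no covariate) with Benjamini-Hochberg adjustment over all genes at 0.05. The fit was also run on simulated data with independent noise and planted differences larger than that of any member. That run cannot show how differences of the members' size fare. Single members were also tested by exact two-sided permutation over all splits of the 9 arrays. The members, lists and tests were chosen with earlier results of these data known. Named with values were the 2 brightest and 2 dimmest genes of each complex, tissue forms with their partners, up to 8 members per direction at an unadjusted p under 0.05, the Sdh genes, Abi1, and up to 2 genes per direction of each other list; further members are examples chosen after their values were seen. The labels do not say that replicate numbers pair the mice. Deviations from the group means correlated at -0.18, 0.15, -0.01 and 0.27 between KO and WT arrays of the same number. These values cannot settle whether the arrays are pairs. Alternatives were quantile normalization, centred medians, a filter on dim genes, the mean of probesets, trend and robust eBayes, array weights, a replicate block, another background percentile and leaving out arrays.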

Additional observations from a re-analysis of the deposited data

Results flagged for a closer look

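Each group of 4 or 5 arrays was searched for an array whose gap to its nearest neighbour took up more of the group's range than Dixon's 95% critical value allows. Of 98 groups 10 had such an array. The chance rate of about 1 in 20 holds for independent values without ties. Here the members varied together and some values were tied, so the count cannot be set against that rate. KO 1 was the high array for 4 genes: Ndufa1, at 16.00 with the next array at 15.55; Ndufc1, at 7.83 beside 7.13; Cox4i2, at 7.24 beside 6.58; and Cox7b, at 13.0 beside 12.72. WT 5 was the low array for Sdhd, at 10.24 beside 11.05, and for Atp5g3, at 12.27 beside 12.53. KO 3 was high for Cox6b2, at 11.49 with the other 3 KO arrays at 11.35, and for Atp5g1, at 11.81 beside 11.64. KO 2 was low for Ndufa4l2, at 3.74 beside 3.82, and WT 3 was low for Cox8c, at 5.20 with the other 4 WT arrays at 5.32. Ndufa4l2 and Cox8c were at or below background.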

How the results depend on the processing

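Of 92 members 59 kept the sign of their difference under all 17 alternatives that changed the fit or the arrays, 55 of them higher in KO and 4 lower, Cox8c did so in the 16 that held it, and Abi1 passed in each. Some of these alternatives could not turn a sign: trend and robust eBayes and the filter on dim genes leave a difference unchanged. The mean of probesets changed only the 3 members with several, and the block gave the same median difference as leaving out WT 5. Array weights gave 2 genes past an adjusted p of 0.05 in place of 1. The count of members higher in KO at an unadjusted p under 0.05, 15 with all arrays, was 9 after quantile normalization, 8 with a replicate block, 4 without KO 1 and WT 5, and 5 to 26 when 1 array was left out (5 without KO 1, 6 without WT 1, 7 without WT 4, 8 without KO 3, 9 without KO 2 or WT 5, 26 without WT 3). The share of all genes moved too, from 3.82% with all arrays to 3.74% after quantile normalization and 2.95% with the block. It was 2.26% without both arrays, and ran from 2.45% without KO 1 to 5.09% without WT 3 when 1 array was left out. The count of lower members, 0 with all arrays, was 1 with the block, 1 without both arrays and 0 to 1 without 1 array. The median of complex II was -0.065 with the block, and that of complex IV was 0.038 without both arrays and up to 0.251 without 1. The replicate numbers are not said to pair mice, and the block in effect drops WT 5.

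Signs also turned. Assembly factors of complex I had -0.004 after centring, -0.031 with weights, -0.085 with the block and -0.073 without both arrays, and the core subunits -0.053 with the block and -0.00042 without both. After quantile normalization Uqcrh had -0.019 and Cox7b2 -0.026. After centring Cox7b2 had -0.027, Ndufab1 -0.005, Sdhb -0.0035 and Uqcrfs1 -0.0095. With weights Cox7b2 had -0.13, Ndufab1 -0.039, Uqcrfs1 -0.012, Cox8b -0.041 and Atp5md -0.00041. With the block Sdhb had -0.033, Sdhd -0.098, Uqcrfs1 -0.018 and Atp5g1 -0.070. Without both arrays Ndufab1 had -0.074, Sdhd -0.035, Uqcrfs1 -0.028, Uqcr10 -0.071, Ndufa4 -0.023, Cox8b -0.031, Atp5md -0.063, Cox7b2 -0.088 and Atp5g1 -0.053. When 1 array was left out, the median ran from -0.065 to 0.136 in complex II, from -0.053 to 0.11 in the core subunits and from -0.085 to 0.141 in the assembly factors. The difference then ran from -0.07 to 0.193 for Atp5g1, -0.163 to 0.103 for Cox7b2, -0.031 to 0.172 for Cox8b, -0.03 to 0.013 for Ndufa4l2, -0.035 to 0.088 for Ndufab1, -0.033 to 0.159 for Sdhb, -0.098 to 0.168 for Sdhd, -0.449 to 0.097 for Uqcrc1 and -0.018 to 0.08 for Uqcrfs1, and reached 0.418 for Uqcr10, 0.27 for Ndufa4 and 0.218 for Atp5md. The causes were not tested.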
